A study of Mus musculus with 6 samples.

Results

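*Kit*, *Sorcs3*, *Nxph1*, *Tfap2b*, *Grm2*, *Slc6a5*, *Lgi2* and *Eomes* mark the inhibitory interneurons and the unipolar brush cells of the cerebellum. They were chosen by name as markers of these cells, and all 8 were found among the 53746 genes of the count table. Whole cerebella of 6 mice, all 2 months old, were used for RNA sequencing, 3 of them N153S LSL/LSL (control) and 3 also carrying Pcp2-cre (N153S LSL/LSL Pcp2-cre, called Pcp2-cre), with mice 1 and 2 of each genotype male and mouse 3 female. Both genotypes carried 2 copies of an allele in which a STOP cassette between loxP sites precedes the sequence of STING-N153S, a constitutively active mutant of the innate immune adaptor STING. The genotypes differed in Pcp2-cre, which is expressed in Purkinje cells, so the mutant was targeted to a cell type that none of the 8 genes was chosen to mark. The comparison addresses whether transcripts of the neighbouring neurons differed in tissue whose Purkinje cells were targeted. The tissue was not sorted. In such bulk tissue, fewer cells of a type and less RNA per cell cannot be told apart.

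Stellate and basket cells, the molecular layer interneurons, receive granule cell input and inhibit Purkinje cells. Golgi cells inhibit granule cells in the layer below and release GABA, glycine or both. Unipolar brush cells are excitatory neurons of the granular layer that prolong mossy fibre input, and Purkinje cells are the output neurons onto which the molecular layer circuit converges.

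The 8 markers did not differ between genotypes beyond the spread between mice. None of them was called differentially expressed, which required an adjusted p no higher than 0.05 together with a log2 fold change of 0.5 or more in either direction, against 3.17% of the 16961 genes tested with edgeR's quasi-likelihood test and Benjamini-Hochberg adjustment. None of the 8 had an adjusted p of at most 0.05 at any fold change, against 7.74% of all genes tested, and 0 of 8 reached an unadjusted p under 0.05, which 3058 of all genes did. DESeq2 and limma likewise called 0 of the 8. All 8 intervals of the log2 fold change (95%) lay inside 0.5 in either direction. The point estimates ran from -0.12 for *Sorcs3* to 0.12 for *Slc6a5*, with a median of -0.02 beside 0.00 over all genes tested. Their median size was 0.05, beside 0.09 over all genes tested, and 3 of the 8 lay above 0. CPM (counts scaled to library size and adjusted by the trimmed mean of M values) separated the genotypes for 1 of the 8, *Sorcs3*, against 22.2% of all genes tested.

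**Figure D1:**
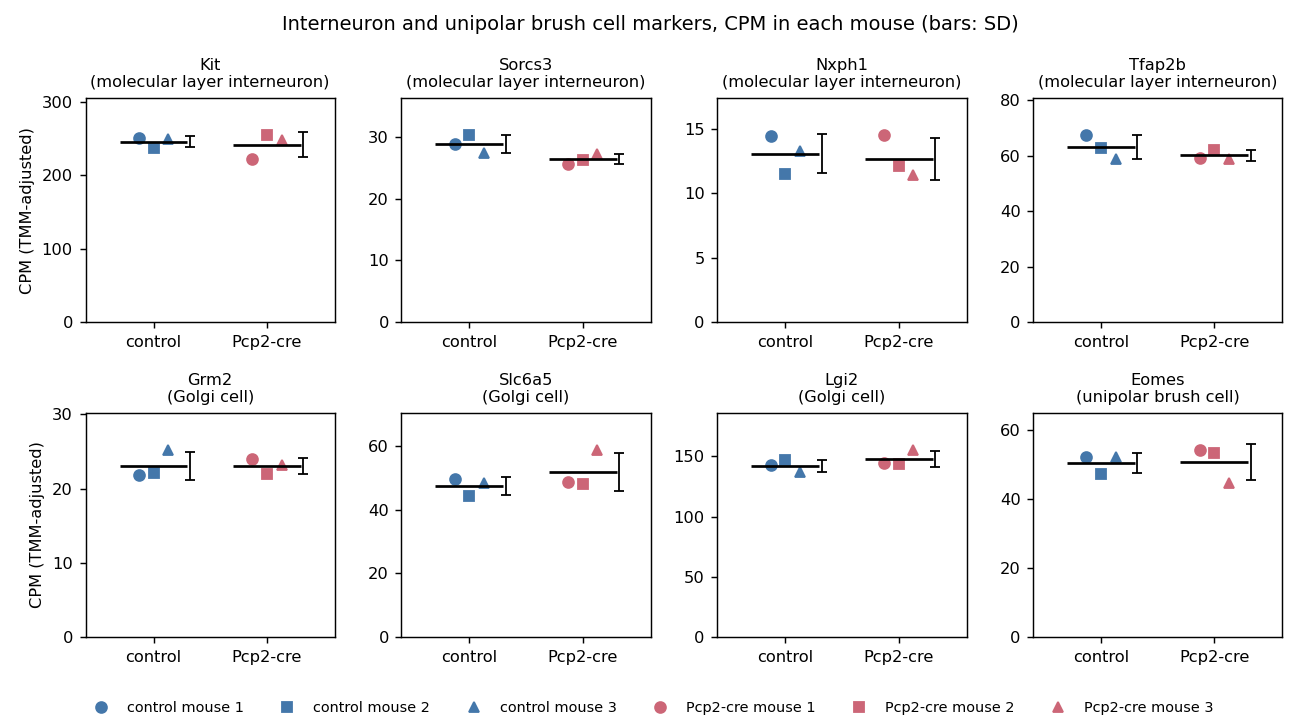
CPM of the 8 markers in each mouse, with 1 panel per gene and an axis that starts at 0. Points are mice, horizontal lines are genotype means and vertical bars are the SD (n = 3 mice per genotype). The control and Pcp2-cre points share a range in every panel except that of *Sorcs3*.

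Total counts per mouse lay between 6733178 and 10178218, so that 3 counts, taken as the floor of detection, equalled 0.297 to 0.447 CPM. Every member lay far above it. The lowest count of any member in any mouse was 77, for *Nxph1* in control mouse 2, with an exact Poisson interval of 60.8 to 96.2 that covers counting error only. *Sting1*, the engineered gene, rose from 25.5 ± 2.09 to 38.0 ± 5.55 CPM in Pcp2-cre mice (SD, n = 3 each), higher by 0.57 on the log2 scale with an edgeR adjusted p of 3.59e-04. Counts of whole tissue do not tell which cells made this transcript or whether it carried the mutation. In public single-cell data the paper found *Sting1* mRNA only in microglia, with little or none in neurons. By staining, however, it detected STING protein in wild-type Purkinje cells and regarded staining as the more reliable guide. In younger mice of the same genotypes, it reported more STING protein with Pcp2-cre in Purkinje cells, and no increase in microglia or other neurons. The microglia genes listed below also rose, from a sum of 60.9 to 65.9 CPM in control to 145 to 159 CPM in Pcp2-cre mice. The cell source of the *Sting1* rise was not tested. Control mice 1 and 2 stood apart in choroid plexus genes, whose 7 listed members summed to 788 and 1227 CPM there and to 10.8 to 76.6 CPM in the other 4 mice. Without those 2 mice, 0 of the 8 markers was called. The source of the spread between mice of 1 genotype, biological or technical, cannot be told apart here, since each mouse gave 1 library.

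*Kit* encodes a receptor tyrosine kinase that molecular layer interneurons display to Purkinje cells, and it lies on the forward strand of chromosome 5 (chr5:75735576-75817404, GRCm39, ENSMUSG00000005672). It was at 251, 237 and 249.8 CPM in control mice 1 to 3 and at 222, 254 and 248 CPM in Pcp2-cre mice 1 to 3. The Pcp2-cre mice held both the lowest and the highest value, so the control range lay inside theirs. The means were 246 ± 7.56 and 241 ± 16.9 CPM (SD, n = 3 each). The difference of -0.03 in log2 fold change had a standard error of 0.05 and a 95% interval of -0.13 to 0.07, with an edgeR adjusted p of 0.846. As a ratio, the interval ran from 0.915 to 1.05, the second narrowest of the 8.

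*Sorcs3* encodes a sorting receptor of the sortilin family and marks the larger of the molecular layer interneuron types, known as MLI1 (chr19:48194464-48793944, forward strand, ENSMUSG00000063434). The control mice were at 28.8, 30.2 and 27.4 CPM and the Pcp2-cre mice at 25.6, 26.3 and 27.2 CPM. All 3 Pcp2-cre mice lay below all 3 control mice, though Pcp2-cre mouse 3 and control mouse 3, the female pair, were nearly level. Its log2 fold change was -0.12 with a standard error of 0.08 and an interval of -0.29 to 0.04, and the edgeR adjusted p was 0.466. The separation did not hold in FPKM (fragments scaled to exon length and library size), where the authors' values were 3.91 ± 0.0812 in control and 3.98 ± 0.273 in Pcp2-cre mice and the genotypes overlapped (exact permutation test, two-sided, p = 0.80). The fold change of *Sorcs3* turned above 0 in the 2 fits on FPKM and stayed below 0 in the other 14 alternatives.

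*Nxph1* encodes neurexophilin 1, a secreted ligand of the alpha-neurexins, and marks the other molecular layer interneuron type, MLI2 (chr6:8948431-9249616, forward strand, ENSMUSG00000046178). Its values were 14.5, 11.5 and 13.3 CPM in control and 14.5, 12.1 and 11.4 CPM in Pcp2-cre mice. Mouse 1 was the highest in both genotypes and the ranges coincided almost entirely. At -0.05, its log2 fold change had the largest standard error of the members, 0.13, and an interval of -0.31 to 0.21 (edgeR adjusted p = 0.894). Counting error alone gave a mean coefficient of variation of 10.002% for *Nxph1*, beside an observed 11.6% in control and 12.8% in Pcp2-cre mice. Differences inside that interval could not be resolved at this depth and number of mice.

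*Tfap2b* encodes the transcription factor AP-2 beta of inhibitory cerebellar interneurons (chr1:19279138-19309069, forward strand, ENSMUSG00000025927). It was at 67.4, 63.0 and 59.0 CPM in control mice and at 59.3, 62.2 and 58.9 CPM in Pcp2-cre mice. Control mouse 1 was the highest, and control mouse 3 lay among the Pcp2-cre mice. The log2 fold change was -0.06 with a standard error of 0.06 and an interval of -0.19 to 0.06 (edgeR adjusted p = 0.666).

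*Grm2* encodes the metabotropic glutamate receptor 2, an inhibitory receptor of Golgi cells that some unipolar brush cells also make (chr9:106520294-106533870, reverse strand, ENSMUSG00000023192). The control mice were at 21.8, 22.0 and 25.2 CPM, and the Pcp2-cre mice were at 24.0, 21.9 and 23.2 CPM. All Pcp2-cre values fell inside the control range, and both means were 23.0 CPM, with an SD of 1.87 in control and 1.03 in Pcp2-cre mice. For *Grm2* a log2 fold change of -0.01 had a standard error of 0.09 and an interval of -0.20 to 0.18 (edgeR adjusted p = 0.976).

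*Slc6a5* encodes the neuronal glycine transporter GlyT2, which loads glycinergic terminals (chr7:49559894-49613604, forward strand, ENSMUSG00000039728). It was at 49.5, 44.2 and 48.4 CPM in control mice and at 48.7, 48.0 and 58.6 CPM in Pcp2-cre mice. Pcp2-cre mouse 3 stood above the other 5 mice, and Pcp2-cre mice 1 and 2 lay within the control range. Its log2 fold change of 0.12 was the highest of the 8, with a standard error of 0.08, an interval of -0.04 to 0.28 and an edgeR adjusted p of 0.482. In FPKM the means were 5.66 ± 0.362 and 6.26 ± 0.393 (exact permutation test, two-sided, p = 0.20).

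*Lgi2* encodes a secreted leucine-rich repeat protein that binds ADAM22-family receptors at synapses (chr5:52690631-52723804, reverse strand, ENSMUSG00000039252). The values were 143, 147 and 137 CPM in control and 144, 144 and 155 CPM in Pcp2-cre mice. The highest value was again that of Pcp2-cre mouse 3, and the other 2 Pcp2-cre mice lay between control mice 1 and 2. The log2 fold change was 0.06, with the smallest standard error of the members, 0.04, and an interval of -0.04 to 0.15 (edgeR adjusted p = 0.581). *Lgi2* and *Slc6a5* stayed above 0 in all 16 alternative fits.

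*Eomes*, also named *Tbr2*, encodes the T-box transcription factor that defines unipolar brush cells in the adult cerebellum (chr9:118307280-118315200, forward strand, ENSMUSG00000032446). It was at 52.4, 47.3 and 52.2 CPM in control mice and at 54.3, 53.6 and 44.7 CPM in Pcp2-cre mice. The 2 male Pcp2-cre mice were the highest of all 6 and the female Pcp2-cre mouse was the lowest. The means were 50.7 ± 2.86 and 50.8 ± 5.34 CPM (SD, n = 3 each), and the log2 fold change of 0.01 had a standard error of 0.07 and an interval of -0.15 to 0.16 (edgeR adjusted p = 0.982). In the authors' FPKM the Pcp2-cre mice spread more widely, from 9.60 to 14.3, than the control mice, from 11.96 to 12.6.

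Exons of *Tfap2b*, *Grm2*, *Eomes* and *Kit* overlap genes on the opposite strand over 433, 475, 622 and 10 bases in Gencode M39. The use of strand in counting is not given in the sources used here, so reads from these stretches cannot be assigned to 1 of the 2 genes. The exons of the other 4 members overlapped no other gene.

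Levels per exon length were compared between the members in the authors' FPKM. *Kit* was the highest, with a mean of 41.3 FPKM over the 6 mice, followed by *Lgi2* at 19.9, *Eomes* at 12.5, *Tfap2b* at 9.06 and *Slc6a5* at 5.96 FPKM. *Nxph1*, *Grm2* and *Sorcs3* were the lowest, at 4.21, 4.15 and 3.94 FPKM, and their ranges over the mice overlapped. The ranges of *Eomes* and *Tfap2b* also overlapped, while each other pair of neighbours in this order was separated in all 6 mice. Exact permutation tests of the difference between genotypes in FPKM gave p between 0.20 and 1.0 for the 8 members, all 1.0 after Benjamini-Hochberg adjustment, in a design of 3 against 3 that cannot give a p below 0.10.

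**Figure D2:**
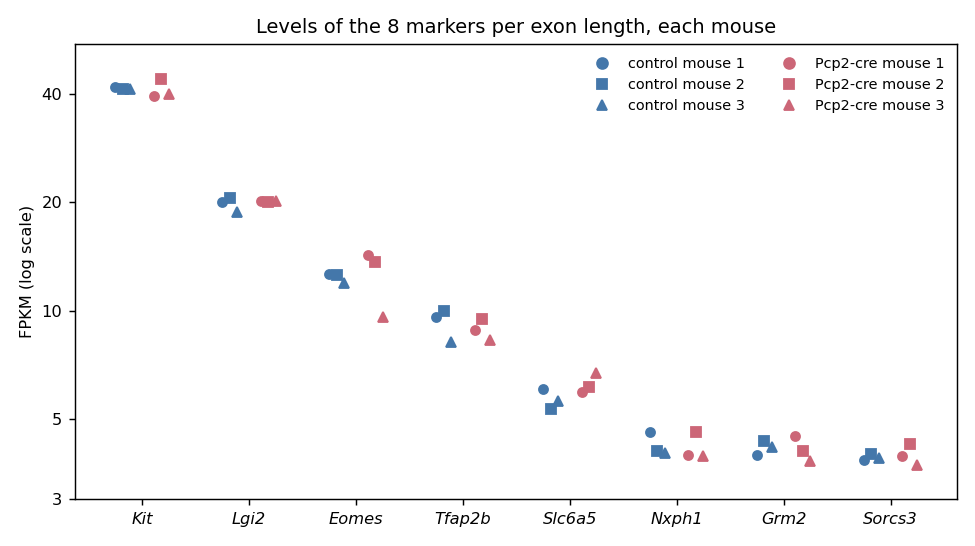
FPKM of the 8 markers in each mouse on a log axis, ordered by the mean over the 6 mice. Points are mice, in blue for control and red for Pcp2-cre. *Kit* lies between 39.4 and 44.0 FPKM and the last 3 genes share a range near 4.

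Ratios of markers within a mouse do not depend on the scaling between libraries. The ratio of *Sorcs3* to *Nxph1*, which sets the MLI1 marker against the MLI2 marker, was 0.926 ± 0.0804 in control and 0.953 ± 0.0358 in Pcp2-cre mice (SD of the FPKM ratio, n = 3 each, exact permutation p = 0.80). The ratio of *Slc6a5* to *Lgi2*, 2 markers of Golgi cells, was 0.287 ± 0.0234 and 0.311 ± 0.0190 (exact permutation p = 0.30). The ratio of *Eomes* to *Kit* was 0.299 ± 0.00859 and 0.304 ± 0.0616 (exact permutation p = 1.0). The genotypes overlapped in these 3 ratios and in 4 more among the members.

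The ligand of *Kit* was measured in the same mice and did differ. *Kitl* encodes Kit ligand, which Purkinje cells make and present to *Kit* on molecular layer interneurons (chr10:99851492-99936278, forward strand). It was at 197, 193 and 187 CPM in control mice and at 115, 94.9 and 112 CPM in Pcp2-cre mice. Every Pcp2-cre mouse lay far below every control mouse. *Kitl* fell by 0.85 on the log2 scale with a standard error of 0.05 (edgeR adjusted p = 8.04e-10), and it was called in all 16 alternatives. This fall lay within the range of the 10 Purkinje cell genes listed below, -0.98 to -0.40 with a median of -0.77. The ratio of *Kitl* to *Kit* in FPKM was 0.792, 0.751 and 0.712 in control mice and 0.485, 0.338 and 0.390 in Pcp2-cre mice. These ratios did not overlap, and their exact permutation p of 0.10 is the smallest that 3 against 3 mice can give, or 0.80 after adjustment over the 8 ratios computed.

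**Figure D3:**
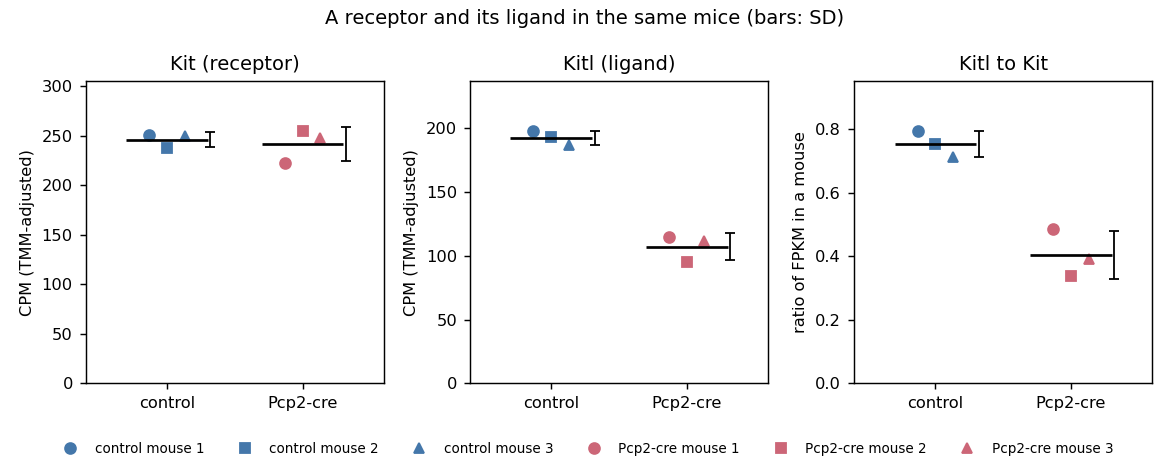
CPM of the receptor gene *Kit* and the ligand gene *Kitl*, and the ratio of their FPKM, in each mouse, on axes that start at 0. Points are mice, horizontal lines means and vertical bars the SD (n = 3 per genotype). *Kit* overlaps between genotypes, while *Kitl* and the ratio are lower in all 3 Pcp2-cre mice.

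Among 14 listed genes for the proteins that the markers bind or work with, 12 could be tested. Of these, *Kitl* was called and 2 more had an adjusted p of at most 0.05, all 3 lower, and the median log2 fold change was -0.02. *Adam23*, a receptor of LGI proteins, fell from 228 ± 7.91 to 172 ± 6.89 CPM (SD, n = 3 each), by 0.41 on the log2 scale with an edgeR adjusted p of 1.50e-06. *Glrb*, the beta subunit of glycine receptors, fell by 0.14 (edgeR adjusted p = 0.0343). The adjusted p of *Glrb* stayed at most 0.05 in 5 of the 16 alternatives and rose above it on leaving out any 1 mouse. *Adam11* and *Nrxn2*, the most abundant of the list at 102 and 91.1 FPKM, had log2 fold changes of 0.03 and -0.04 (edgeR adjusted p = 0.722 and 0.730).

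Further genes of the same cells were listed beside the 8 markers. Of 5 further markers of molecular layer interneurons, *Cdh22*, a cadherin of the MLI2 type, had an adjusted p of at most 0.05. It was at 68.1, 76.8 and 76.1 CPM in control and at 62.3, 66.1 and 61.0 CPM in Pcp2-cre mice, with no overlap. *Cdh22* fell by 0.22 on the log2 scale (standard error 0.06, edgeR adjusted p = 0.0205), under the fold threshold. The adjusted p of *Cdh22* rose above 0.05 in 8 of the 16 alternatives. Among them were those that leave out control mouse 2, control mouse 3, Pcp2-cre mouse 1 or Pcp2-cre mouse 3. *Prkcd*, a protein kinase C and the most abundant of the 5 at 30.5 FPKM, had a log2 fold change of -0.00, and *Gjd2*, the connexin of their electrical synapses, had -0.05 (edgeR adjusted p = 0.981 and 0.885). The list's median was -0.00, and its summed level was 238 to 254 CPM in control and 228 to 239 CPM in Pcp2-cre mice.

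Of 3 further Golgi cell genes, 2 were tested and neither passed. *Chrm2*, a muscarinic acetylcholine receptor, had 38, 29 and 46 counts in control and 54, 51 and 46 counts in Pcp2-cre mice, at 4.54 ± 0.212 and 6.60 ± 0.638 CPM (SD, n = 3 each). The genotypes did not overlap in CPM but overlapped in the authors' FPKM, at 0.730 ± 0.0474 and 0.875 ± 0.145 (exact permutation p = 0.20). The log2 fold change of *Chrm2*, 0.53 with a standard error of 0.18, had an edgeR adjusted p of 0.0793. Over the 16 alternatives this fold change ran from 0.11 to 0.61. *Nrgn*, neurogranin, had -0.20 (edgeR adjusted p = 0.732), and *Sst*, somatostatin, was too low to test. Of 3 transcription factor genes of interneuron precursors, 2 were tested and neither passed. *Pax2* had a log2 fold change of 0.15 (edgeR adjusted p = 0.594), and *Ptf1a* had at most 1 count in any mouse.

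Of 6 further genes of unipolar brush cells, 3 were lower with an adjusted p of at most 0.05 and 1 of these was also past the fold threshold. *Plcb4*, a phospholipase C that is also abundant in Purkinje cells, was at 405, 379 and 385 CPM in control and at 335, 319.7 and 337 CPM in Pcp2-cre mice. The 2 ranges did not overlap. *Plcb4* fell by 0.24 on the log2 scale with a standard error of 0.04 (edgeR adjusted p = 4.29e-04). Its adjusted p stayed at most 0.05 in 14 of the 16 alternatives but not in the 2 fits on FPKM. *Calb2*, calretinin, which Purkinje cells lack and granule cells share, was the most abundant of the list at 223 FPKM and had a log2 fold change of -0.01 (edgeR adjusted p = 0.970). The list's median was -0.33 and its sum 1273 to 1305 CPM in control against 1052 to 1107 CPM in Pcp2-cre mice, while *Eomes* did not pass the test.

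**Figure D4:**
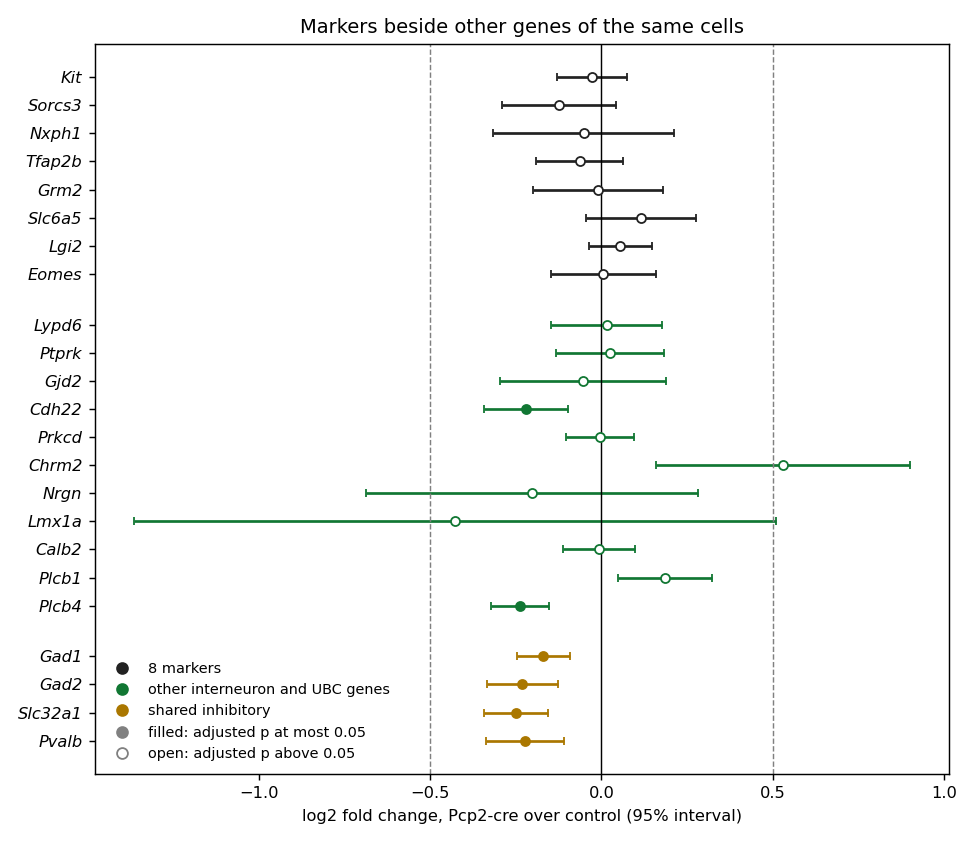
Log2 fold changes of Pcp2-cre over control mice with 95% intervals from edgeR for the 8 markers (black), 11 other listed genes of the same cells (green) and 4 of the 5 shared inhibitory genes (ochre). Dashed lines mark the fold threshold of 0.5 and filled circles an adjusted p of at most 0.05. All 8 marker intervals cross 0 and stay inside the dashed lines, while *Plcb4* at -0.24 and *Slc32a1* at -0.25 are filled and lie to the left of 0.

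Some genes are used by inhibitory neurons of the cerebellum in general, Purkinje cells included. Of 5 such genes listed, 4 were lower with an adjusted p of at most 0.05, none past the fold threshold, with a list median of -0.22. *Slc32a1*, the vesicular GABA transporter, was at 137, 154 and 145 CPM in control and at 122, 121 and 123 CPM in Pcp2-cre mice, without overlap. It fell by 0.25 on the log2 scale (standard error 0.04, edgeR adjusted p = 6.85e-04) and kept an adjusted p of at most 0.05 in all 16 alternatives. *Gad1* and *Gad2*, which make GABA, fell by 0.17 and 0.23 (edgeR adjusted p = 0.00454 and 0.00393). *Pvalb*, the calcium buffer parvalbumin, fell by 0.22 (edgeR adjusted p = 0.0109). The adjusted p of *Gad2* and of *Pvalb* rose above 0.05 without Pcp2-cre mouse 2, and that of *Pvalb* also without control mouse 2. Without control mice 1 and 2 together, *Slc32a1* still passed the p threshold and *Gad1*, *Gad2* and *Pvalb* did not.

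Of 18 relatives from the members' gene families, 12 were tested, with 1 called in each direction and a median log2 fold change of -0.01. *Nxph4*, a paralog of *Nxph1*, rose from 10.7 ± 0.935 to 15.5 ± 0.673 CPM (SD, n = 3 each), by 0.52 on the log2 scale (edgeR adjusted p = 0.00504). The call of *Nxph4* was kept in 10 of 16 alternatives and its value fell under the fold threshold without control mouse 2, at 0.46, and without Pcp2-cre mouse 3, at 0.48. *Sorcs2*, a paralog of *Sorcs3*, fell from 17.3 ± 1.63 to 11.97 ± 1.35 CPM, by 0.55 (edgeR adjusted p = 0.00337). The call of *Sorcs2* was kept in 12 alternatives, with -0.49 without control mouse 3 and -0.46 without Pcp2-cre mouse 2.

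Under the fold threshold, *Sorcs1* rose by 0.37 (edgeR adjusted p = 0.0375), while *Sort1* and *Sorl1* fell by 0.19 and 0.23 (edgeR adjusted p = 0.00569 and 4.88e-04). The adjusted p of *Sorcs1* rose above 0.05 without control mouse 1, control mouse 2, Pcp2-cre mouse 2 or Pcp2-cre mouse 3. That of *Sort1* did so without control mouse 1 or Pcp2-cre mouse 2. The sortilin family thus held *Sorcs2*, *Sort1* and *Sorl1* lower and *Sorcs1* higher, with *Sorcs3* itself not past the test. *Lgi3*, the most abundant relative after *Sorl1* at 56.7 FPKM, had a log2 fold change of 0.10 (edgeR adjusted p = 0.217).

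Markers of other cell types moved in the same libraries. All 10 Purkinje cell genes were lower with an adjusted p of at most 0.05, 7 of them called, with log2 fold changes from -0.98 to -0.40 and a median of -0.77. Their sum was 7528 to 8249 CPM in control and 4172 to 4626 CPM in Pcp2-cre mice. *Itpr1*, the inositol trisphosphate receptor, fell by 0.98 and *Car8*, a carbonic anhydrase relative, by 0.96 (edgeR adjusted p = 2.93e-13 and 2.65e-10). No granule cell gene was called of 9 tested. Of these 9, *Neurod1*, a transcription factor, rose by 0.17 (edgeR adjusted p = 0.0282), and the list's median was 0.06. The adjusted p of *Neurod1* stayed at most 0.05 in 8 of 16 alternatives. It rose above 0.05 without any 1 mouse other than control mouse 3.

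The astrocyte and Bergmann glia list had 2 of 6 genes called higher, *Gfap* at 1.94 and *Aqp4* at 0.51, and 2 lower under the fold threshold. *Aqp4* was under the fold threshold without control mouse 2, control mouse 3 or Pcp2-cre mouse 2, at 0.49, 0.47 and 0.46. The list had a sum of 1759 to 1817 CPM in control and 2058 to 2145 CPM in Pcp2-cre mice. The microglia list had 4 of 6 called higher, with a median of 1.22 and a sum of 60.9 to 65.9 CPM against 145 to 159 CPM. Of the 7 choroid plexus genes, 5 were tested and all 5 were called lower, and 4 of these turned higher without control mice 1 and 2. The same 4, *Ttr*, *Kl*, *Slc4a5* and *Kcnj13*, lost their call without Pcp2-cre mouse 2, *Ttr* and *Kcnj13* also without Pcp2-cre mouse 1, and *Kcnj13* without either control mouse 1 or control mouse 2. All 4 also lost their call in the DESeq2 Wald test and in both limma fits. The part of these cell types in the values of the 8 markers and of the shared genes was not tested.

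**Figure D5:**
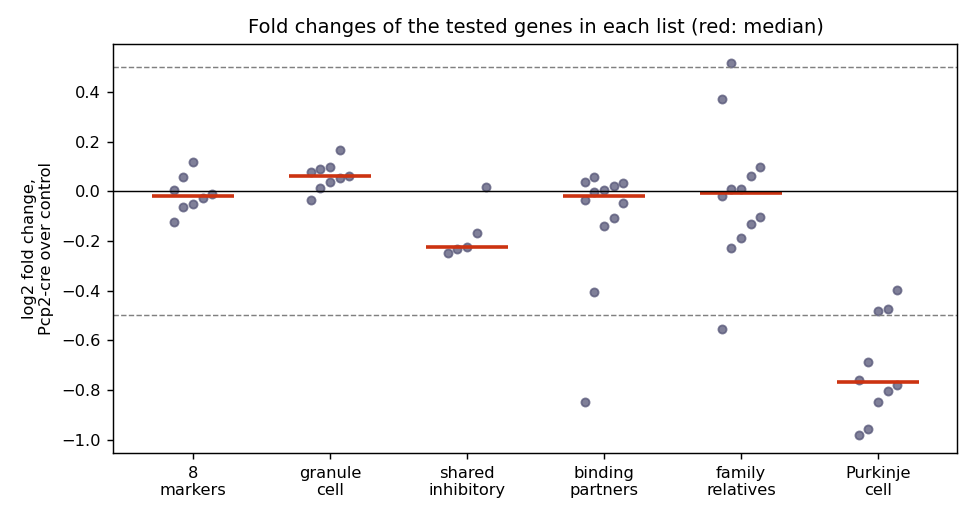
Log2 fold changes of Pcp2-cre over control mice for every tested gene of 6 lists. Points are genes, red lines list medians and dashed lines the fold threshold of 0.5. The 8 markers lie between -0.12 and 0.12 around a median of -0.02, and the 10 Purkinje cell genes between -0.98 and -0.40.

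Some of the markers are also made outside the cerebellar interneurons, and the listed genes of those sources were low. Of 12 genes of brainstem neurons, which can bring glycinergic *Slc6a5*, none was tested and 9 had at most 3 counts in every mouse, with 2 at 0 in all mice. Their sum was 1.25 to 2.08 CPM in control and 1.15 to 1.92 CPM in Pcp2-cre mice. Of 8 genes of mast cells and melanocytes, which also make *Kit*, 5 had at most 3 counts in every mouse and the sum was 3.27 to 4.12 CPM in control and 2.63 to 3.12 CPM in Pcp2-cre mice. The tested gene among them, *Pmel*, lay above the floor, with 19, 13 and 22 counts in control and 10, 12 and 10 counts in Pcp2-cre mice. Its log2 fold change was -0.64 (edgeR adjusted p = 0.249). Of 6 genes of natural killer and T cells, some of which make *Eomes*, none was tested and the sum was 0.149 to 0.495 CPM in control and 0.115 to 0.592 CPM in Pcp2-cre mice.

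Of the 8 members, *Sorcs3* had the smallest unadjusted p, and 11381 tested genes with a mean of at least 10 CPM were compared with it over the 6 mice. The 3 most alike were *Gtf3c1*, *Gclc* and *Pcdh20*, with Pearson's r of 0.989, 0.986 and 0.985 in log2 CPM. This is a description over 6 mice of both genotypes, with the genes compared read from the same libraries. A difference between genotypes can enter r, and 169 genes had an r of at least 0.9.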

How the data were processed

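Per the labels and the study's methods, RNA of whole cerebella was enriched for poly A transcripts and sequenced as paired reads. The authors aligned reads to GRCm39 with STAR and quantified them with featureCounts and StringTie on a Gencode annotation. Tool versions, Gencode release, strand and multimapping are not given in the sources used here. Deposited were raw counts per mouse (53746 genes) and, in a separate table, FPKM (55005 genes).

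Counts were fitted with edgeR 4.0.16 under R 4.3.3, using its quasi-likelihood test without covariates after filterByExpr and TMM. Alternatives used DESeq2 1.42.0 size factors or its Wald test, limma 3.58.1 on log2(FPKM + 1) or log2(FPKM + 0.1), no TMM, no filter or at least 10 counts in every mouse, sex, a replicate block, and each mouse left out. Leaving out control mice 1 and 2 together, sex interactions and ratios were added after seeing the data. FPKM and ratios were tested by exact permutation. Deviations from the group means correlated between same-numbered mice (Pearson's r 0.189, 0.217 and 0.430 for numbers 1, 2 and 3), but as highly between males of different number (0.251 for control mouse 1 with Pcp2-cre mouse 2, 0.174 for control mouse 2 with Pcp2-cre mouse 1). Males with females gave -0.34 to -0.26. Number and sex cannot be told apart for mouse 3, and the values do not show a pairing by number among the males. Scripts were tested on simulated data. Xist followed the sex labels in 6 of 6 libraries.

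The members and the gene lists were chosen with earlier results of these data known. The lists held other interneuron and unipolar brush cell genes, precursor genes, shared inhibitory genes, partners, relatives, and Purkinje, granule, astrocyte and Bergmann, microglia, choroid plexus, brainstem, mast cell and melanocyte, and natural killer and T cell genes. Besides the 8 members, the text names, per list of the same cells, called genes, the 2 of smallest p and the 2 of highest FPKM, up to 3 examples of smallest p per list of other cells, and the 3 genes most alike to the member of smallest p. *Sst*, *Glrb*, *Sort1*, *Sorcs1*, *Pvalb*, *Gad1*, *Plcb4*, *Neurod1*, *Aqp4* and *Pmel* were named after their values were seen, where a rule did not already name them. A few listed genes enter the counts and medians of their lists but are not reported singly here. Coordinates came from Gencode M39 (GRCm39), which held 53141 of the 53746 identifiers.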

Additional observations from a re-analysis of the deposited data

Results flagged for a closer look

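*Eomes* differed in opposite directions in the 2 sexes. The difference between Pcp2-cre and control mice was 0.11 on the log2 scale in males (2 mice of each genotype) and -0.22 in females (1 mouse of each genotype). The interaction of sex and genotype was 0.33 with a standard error of 0.14 and an edgeR adjusted p of 0.846 over all genes, so it did not pass. The female value rests on 1 mouse per genotype. Such a pattern, in which both male Pcp2-cre mice lie on one side of both male controls and the female Pcp2-cre mouse on the other side of the female control, was seen in 15.3% of the 16961 genes tested.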

How the results depend on the processing

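None of the 8 markers was called in any of the 16 alternatives, nor did any reach the p threshold alone, where the lowest adjusted p of a marker was 0.309 for *Lgi2* without control mice 1 and 2. The markers' median log2 fold change lay between -0.047 and 0.0044 on leaving out 1 mouse. With the replicate block it was -0.01, with 229 genes called higher and 319 lower, and the block changed no call of a gene named in the text. For *Plcb1*, drawn among the unipolar brush cell genes, the block lowered the adjusted p under the threshold. The signs of *Kit*, *Sorcs3*, *Nxph1*, *Tfap2b*, *Grm2* and *Eomes* depended on the setting. Over all genes, 233 were called higher and 304 lower, or 537 in all against 1312 without the fold threshold. DESeq2 called 150 higher and 231 lower, and limma called 126 higher and 155 lower with a pseudocount of 1 and 144 higher and 167 lower with 0.1. On leaving out 1 mouse the counts were 183 to 245 higher and 243 to 387 lower. Without control mice 1 and 2, the choroid plexus genes *Ttr*, *Kl*, *Slc4a5* and *Kcnj13* turned to 2.88, 0.85, 0.50 and 0.072. The cause of these shifts was not tested. With 3 mice per genotype, member differences inside their intervals could not be resolved.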
